A study of Mus musculus with 6 samples.

Results

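Peroxisome biogenesis and peroxisomal lipid oxidation were examined through 34 genes, chosen by symbol: 11 peroxins, which build the organelle, and 23 genes for peroxisomal oxidation, ether lipid synthesis, metabolite transport, coenzyme A turnover and hydrogen peroxide removal. All 34 were among the 56691 genes of the deposited table, and all 34 passed the filter on low counts. The source was inguinal white adipose tissue (iWAT), a subcutaneous depot, taken whole from male C57BL/6J mice for RNA-seq. Mice entered the experiment at an age of 8 weeks and spent 8 weeks in their housing. The single housing group comprised 3 mice kept with 1 mouse per cage, and the group housing group comprised 3 mice kept with 4 to 6 mice per cage. The labels name no transgene or drug for either group, and each mouse gave 1 library.

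Peroxisomes shorten very-long-chain and branched fatty acids that mitochondria cannot take directly, and pass the shortened products on. Their oxidases hand electrons to oxygen and so form hydrogen peroxide, which catalase breaks down. They also carry out the opening steps of ether lipid synthesis. Peroxins bring matrix enzymes across the membrane, insert membrane proteins and divide the organelle. In brown adipocytes peroxisomes are known to be numerous, and many of their enzymes are targets of the fatty acid receptor PPARα in rodent liver.

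Libraries held between 21410779 and 35318376 counts assigned to genes, and no member had fewer than 207 counts (Amacr) in any library. The adipocyte marker Adipoq ran from 697 to 1293 FPKM over the 6 libraries (FPKM, the authors' counts scaled by exon length and library total), so adipocyte transcripts were abundant in all 6. The libraries also differed in ways that housing did not explain. Summed skeletal muscle markers (15 genes) ran from 46.6 to 4050 FPKM under single housing, highest in library 3, and from 39.5 to 1470 FPKM under group housing, lowest in library 3. Summed B and plasma cell markers (11 genes) ran from 244 to 636 FPKM under single housing, lowest in library 3, and from 463 to 774 FPKM under group housing. Principal component 1, with 61% of the variance, had single-housed library 3 at one end (82.8) and group-housed library 3 at the other (-50.4). Principal component 2, with 17.7%, separated the housing groups, at 24.3, 30.3 and 13.8 in single-housed libraries and -22.7, -30.9 and -14.8 in group-housed libraries.

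Levels of the peroxisomal transcripts were somewhat higher in single-housed mice, but for most members the FPKM of the groups overlapped. Of the 34 members, 32 (94.1%) had a log2 fold change above 0, with a median of 0.24, while 48.1% of all 18085 tested genes lay above 0 and their median was -0.01. With library totals alone as scaling, which put the median of all genes at -0.10, 26 members lay above 0. No member passed edgeR's quasi-likelihood test (Benjamini-Hochberg adjusted p from 0.635 to 0.997), nor did any other gene of the table (0% called). At an unadjusted p below 0.05 there was 1 member, Abcd3, which is 2.94% of the 34, below the 6.96% of all genes at that p in either direction (3.49% higher and 3.47% lower in single housing). The same count was 3 with DESeq2 (Abcd3, Ech1 and Ehhadh), and 0 members passed there after adjustment. Of the 33287 genes in that fit, 4.42% lay below that p and 0.538% passed after adjustment. These genes include those of low count, so the shares are not on the same base as those of the 18085 genes. Enzymes and carriers had a median log2 fold change of 0.32 (23 genes) and peroxins of 0.16 (11 genes), and the difference between these medians was not tested.

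**Figure D1:**
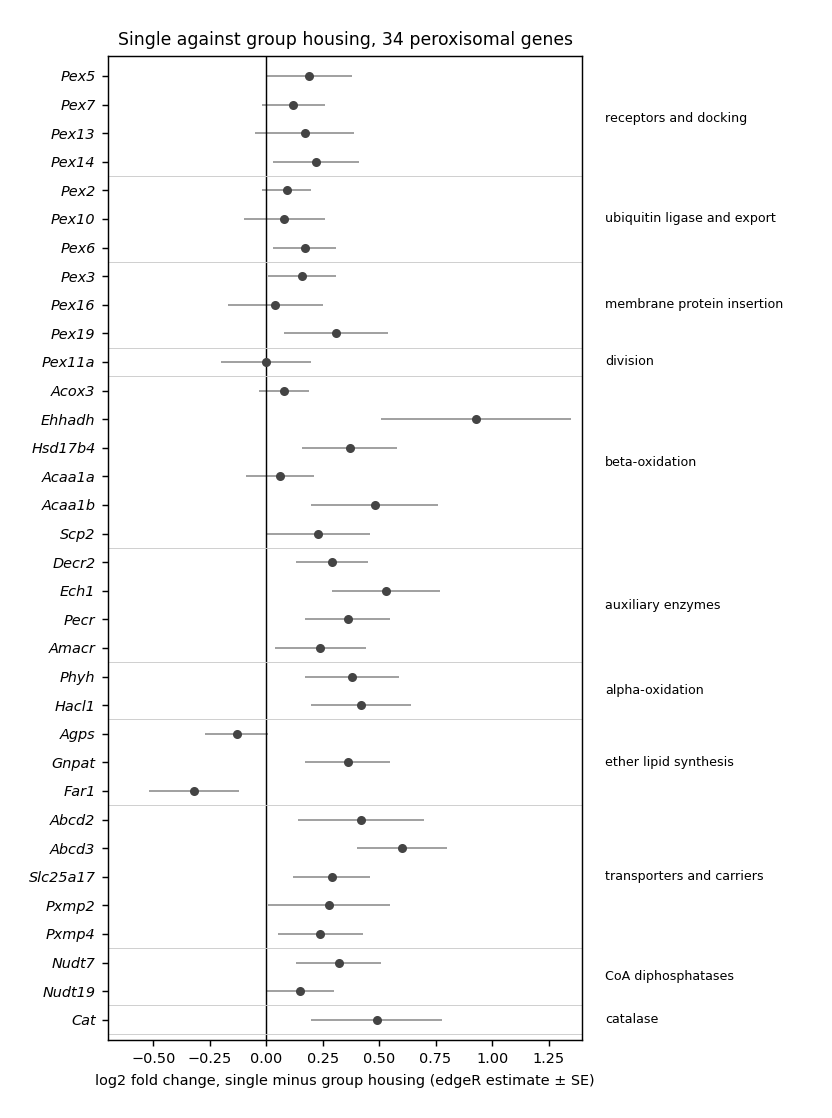
Log2 fold changes of the 34 peroxisomal genes, single minus group housing, as edgeR estimates (points) with standard errors (bars), grouped by role. Of the 34 points, 32 lie above 0, Abcd3 (0.60 ± 0.20) and Ehhadh (0.93 ± 0.42) lie farthest to the right, and Far1 (-0.32 ± 0.20) lies farthest to the left.

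The higher levels rested largely on 2 libraries, 1 in each group. After scaling for composition by TMM (trimmed mean of M values), 27 of 34 members (79.4%) peaked in single-housed library 3 and were lowest in group-housed library 3, an order that 16.3% of all tested genes showed. On the deposited FPKM this held for 19 members (55.9%), against 8.11% of all genes. The median deviation of the 34 members from their own mean was 0.01, 0.00 and 0.40 log2 units in single-housed libraries 1, 2 and 3, and -0.08, 0.11 and -0.42 in group-housed libraries 1, 2 and 3. Without single-housed library 3 the median log2 fold change of the members was 0.10, and without group-housed library 3 it was 0.13. After TMM scaling adipocyte markers (10 genes) shared this order in their median deviation. It was -0.13, -0.04 and 0.44 in single-housed libraries and -0.08, 0.31 and -0.61 in group-housed libraries. On the deposited FPKM 4 of the 10 had the order (40.0%, against 8.11% of all genes). Their summed FPKM was highest in group-housed library 2 (11900, against 10300 in single-housed library 3). The share of counts from mitochondrial chromosome genes was 9.83%, 9.19% and 12.05% in single-housed libraries 1, 2 and 3, against 6.20%, 7.53% and 6.02% in group-housed libraries 1, 2 and 3. It did not overlap between groups and, like the members, was highest in single-housed library 3 and lowest in group-housed library 3. Its part in the members' differences was not tested. In bulk tissue, fewer cells of a type and less RNA per cell cannot be told apart.

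**Figure D2:**
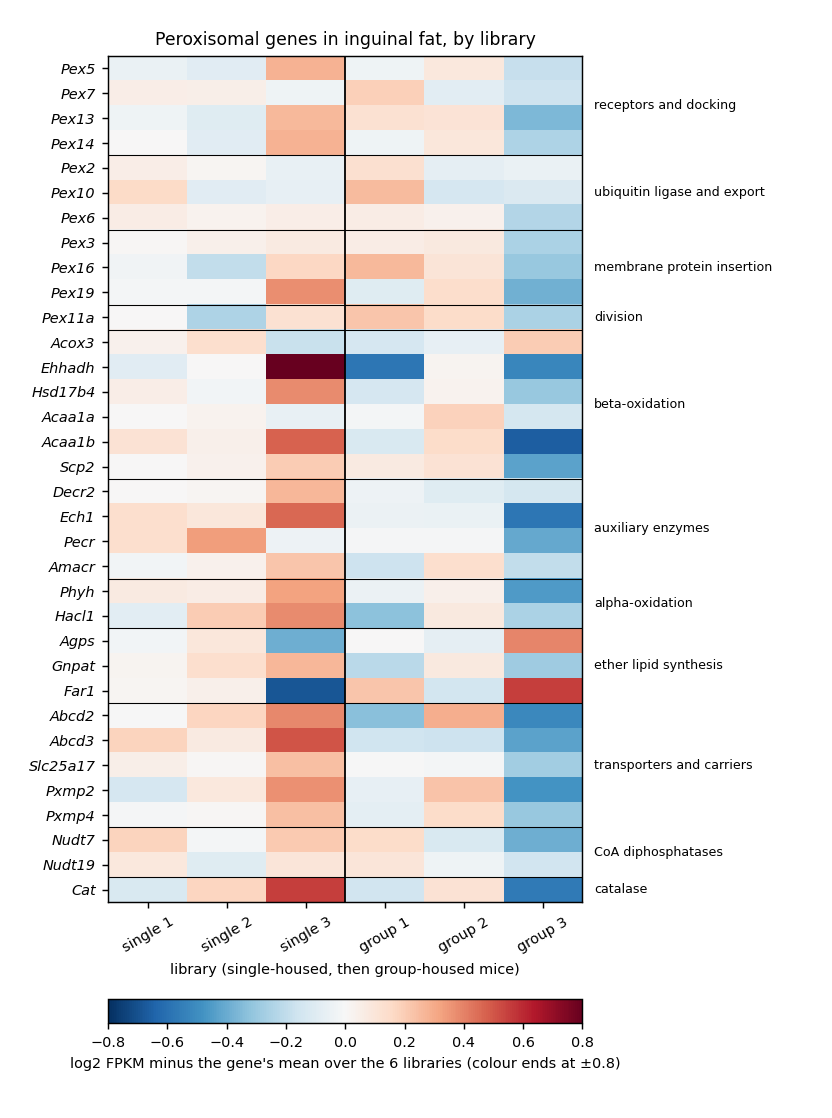
Heat map of the 34 peroxisomal genes (rows, by role) in the 3 single-housed and 3 group-housed libraries (columns), coloured by log2 of the deposited FPKM minus the gene's mean over the 6 libraries, with the colour scale ending at ±0.8. Single-housed library 3 is red and group-housed library 3 blue for most rows, while Far1 and Agps show the opposite colours.

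Levels of muscle and adipocyte transcripts were each added to the model as a covariate. With the muscle marker level, a choice made with earlier results of these data known, 19 members were higher and 1 (Far1) lower at an unadjusted p below 0.05, which is 58.8% of the members against 23.3% of all genes. After adjustment 7 members passed in that fit (Abcd3, Ech1, Ehhadh, Hsd17b4, Phyh and Cat higher, Far1 lower), while 6.27% of all genes passed. Abcd3 had an adjusted p of 0.00614 there, and Phyh, the last of the 7, one of 0.0464. With the adipocyte marker level, added after seeing the data, the members' median log2 fold change was 0.11, 7 members had an unadjusted p below 0.05 (20.6%, against 11.9% of all genes) and 0 passed after adjustment (0.354% of all genes). Without the libraries richest in muscle transcripts (single-housed library 3 and group-housed library 2) the median was 0.24, 6 members lay below that p (17.6%, against 12.0% of all genes) and 0 passed (0.117% of all genes). Leaving out 1 library at a time gave 7 members at that p without group-housed library 2 (9.57% of all genes), 3 without single-housed library 1 (6.19%) and 2 without single-housed library 2 (5.4%). It gave 1 without single-housed library 3 (6.03%), 1 without group-housed library 1 (4.27%) and 0 without group-housed library 3 (4.44%). With no filter on low counts there were 3 members. Of the 33312 genes in that fit, a larger base that includes genes of low count, 5.37% lay below that p and 0.159% passed after adjustment. With the replicate number as a block there were 0 members (3.26% of all genes). The part of muscle and adipocyte content in the members' differences was not tested.

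The promoters of 5 members are shown because they span the pattern: Abcd3, Ech1 and Ehhadh had the smallest p, Cat was among the most abundant members, and Far1 ran opposite to them. Sequences are RefSeq windows of build GRCm38.p6, from 250 bases before to 50 bases after a transcription start, given 5′ to 3′ on the strand of the gene. Capitals mark matches, on either strand, to the GC box (GGGCGG), the CCAAT box (CCAAT), the nuclear receptor hexamer (AGGTCA) or the nuclear respiratory factor 1 core (GCGC and TGCGC with 1 base of any kind between them).
Abcd3, chr3:121815253-121815552, minus strand: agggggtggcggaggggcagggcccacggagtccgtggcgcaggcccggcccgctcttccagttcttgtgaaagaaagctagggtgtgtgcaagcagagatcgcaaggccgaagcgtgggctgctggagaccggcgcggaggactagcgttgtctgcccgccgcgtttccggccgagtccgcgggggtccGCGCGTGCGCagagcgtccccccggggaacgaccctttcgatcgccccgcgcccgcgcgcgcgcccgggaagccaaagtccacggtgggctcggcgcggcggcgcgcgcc
Ech1, chr7:28825088-28825387, plus strand: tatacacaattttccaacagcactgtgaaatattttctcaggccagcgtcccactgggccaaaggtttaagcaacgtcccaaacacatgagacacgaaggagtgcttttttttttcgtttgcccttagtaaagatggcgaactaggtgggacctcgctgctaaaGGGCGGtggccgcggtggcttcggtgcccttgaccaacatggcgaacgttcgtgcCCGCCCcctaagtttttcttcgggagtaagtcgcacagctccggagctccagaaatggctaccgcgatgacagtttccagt
Ehhadh, chr16:21787785-21788084, minus strand: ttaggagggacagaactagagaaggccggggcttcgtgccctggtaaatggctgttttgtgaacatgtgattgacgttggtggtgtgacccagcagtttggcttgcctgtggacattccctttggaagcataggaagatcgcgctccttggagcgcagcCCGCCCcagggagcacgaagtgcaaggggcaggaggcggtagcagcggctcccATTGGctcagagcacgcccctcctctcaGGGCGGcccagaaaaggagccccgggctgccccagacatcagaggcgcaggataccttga
Cat, chr2:103485104-103485403, minus strand: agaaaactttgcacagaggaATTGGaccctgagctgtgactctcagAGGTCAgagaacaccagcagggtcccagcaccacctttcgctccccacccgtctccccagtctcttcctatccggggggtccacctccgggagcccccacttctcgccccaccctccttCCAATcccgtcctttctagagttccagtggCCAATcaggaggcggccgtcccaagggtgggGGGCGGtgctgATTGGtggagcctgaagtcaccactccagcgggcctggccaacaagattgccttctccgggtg
Far1, chr7:113513584-113513883, plus strand: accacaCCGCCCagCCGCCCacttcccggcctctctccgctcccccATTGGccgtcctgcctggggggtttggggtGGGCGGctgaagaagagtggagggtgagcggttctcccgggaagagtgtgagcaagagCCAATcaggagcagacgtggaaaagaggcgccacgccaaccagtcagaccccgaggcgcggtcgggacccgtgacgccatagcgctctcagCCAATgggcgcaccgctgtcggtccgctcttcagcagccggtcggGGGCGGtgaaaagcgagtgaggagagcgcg

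Windows were found for 28 of the 34 members. The GC box was in a window of 23 of the 28 (82.1%), against 38.2% of 27025 genes. Those 27025 are all genes with a window, whether or not they are expressed in fat, and shares among the tested genes were not computed. The CCAAT box was in 13 (46.4%, against 41.1%), the nuclear receptor hexamer in Cat, Phyh and Scp2 (10.7%, against 18.1%) and the nuclear respiratory factor 1 core in Abcd3, Nudt7 and Pex10 (10.7%, against 5.19%). The last lay 60 bases before the start in Abcd3, whose other RefSeq window held none of the motifs. Searches for the direct repeat bound by PPAR and RXR (AGGTCA followed by AGGTCA after 1 base of any kind, in 0.0481% of all genes) and for the estrogen-related receptor element (AGGTCA preceded by TCA, in 0.466%) found 0 members. Both longer motifs contain the hexamer, the motifs were chosen with their matches known, both strands were searched, and these windows do not cover distant elements.

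The class of transporters and other membrane proteins had 5 genes, all with log2 fold changes above 0 (0.24 to 0.60). Of these, Abcd2, Abcd3 and Slc25a17 carry acyl-CoA or cofactors across the membrane. Abcd3 (ENSMUSG00000028127; mm39 chromosome 3, 121552423 to 121608951), an ATP-driven transporter that imports branched and dicarboxylic acyl-CoA, stood at 27.0, 25.0 and 33.7 FPKM in single-housed libraries 1, 2 and 3, against 21.3, 21.2 and 17.7 FPKM in group-housed libraries 1, 2 and 3. The groups did not overlap, and library 3 was the extreme one in each. Its means were 28.6 ± 4.59 FPKM under single housing and 20.1 ± 2.08 FPKM under group housing (SD, n = 3 each). The edgeR estimate was 1.52-fold (log2 fold change 0.60 ± 0.20 SE, adjusted p = 0.635). Its log2 fold change ran from 0.40 to 0.73 over 19 alternative settings, and its unadjusted p, 0.0208 in the edgeR test, was above 0.05 in 2 of them, at 0.0737 with the replicate block and 0.0707 without group-housed library 3.

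Abcd2, which carries very-long-chain and unsaturated acyl-CoA and is abundant in fat, was at 74.2, 83.9 and 97.2 FPKM in single-housed mice and at 59.1, 91.0 and 52.1 FPKM in group-housed mice. Group-housed library 2 thus exceeded 2 of the 3 single-housed libraries. Slc25a17, a carrier of coenzyme A and related cofactors, was at 25.0, 24.2 and 28.4 FPKM in single-housed mice, against 24.1, 23.9 and 19.9 FPKM in group-housed mice, groups that did not overlap on FPKM and did so after TMM scaling. The membrane proteins Pxmp2 and Pxmp4 averaged 15.7 ± 2.75 and 15.1 ± 1.5 FPKM under single housing, and 13.7 ± 3.29 and 13.6 ± 2.13 FPKM under group housing (SD, n = 3 each).

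Beta-oxidation in peroxisomes runs from an oxidase through a bifunctional hydratase and dehydrogenase to a thiolase, and the log2 fold changes of its 6 genes ran from 0.06 to 0.93 (median 0.30), none with p below 0.05. Ehhadh (mm39 chromosome 16, 21580037 to 21606557), the bifunctional enzyme of straight-chain and dicarboxylic acids, was at 20.4, 21.8 and 48.7 FPKM in single-housed libraries 1, 2 and 3, against 14.6, 22.1 and 15.2 FPKM in group-housed libraries 1, 2 and 3. Its log2 fold change was the largest of all members, at 0.93 ± 0.42 (adjusted p = 0.743, edgeR), but its size rested largely on a single library. Single-housed libraries 1 and 2 lay within the range of the group-housed mice, whose highest value was that of library 2. Without single-housed library 3 the log2 fold change was 0.31, and that library also had the most muscle transcripts. Without both single-housed library 3 and group-housed library 2, Ehhadh was among 6 members at an unadjusted edgeR p below 0.05. These were 17.6% of the members, against 12.0% of all genes, and 0 members passed after adjustment.

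Hsd17b4, the bifunctional enzyme of the other stereochemistry that handles branched and very-long-chain substrates, was at 67.2, 63.8 and 84.0 FPKM in single-housed mice, against 58.8, 65.8 and 52.5 FPKM in group-housed mice. Group-housed library 2 again lay inside the single-housed range. Scp2, a lipid carrier fused to a thiolase, was next to catalase the most abundant member, at 280, 286 and 322 FPKM in single-housed mice and 293, 303 and 207 FPKM in group-housed mice. Group-housed library 3 alone lay below the rest. The gene's coordinates overlap those of Podn by 52607 bases on the same strand, so reads could be shared. The thiolase genes Acaa1a and Acaa1b are near-identical, so the division of reads among them is uncertain. Acaa1b averaged 7.89 ± 1.30 FPKM under single housing and 6.00 ± 1.61 FPKM under group housing, and Acaa1a 25.55 ± 0.77 and 25.96 ± 2.95 FPKM in the same order (SD, n = 3 each). Acox3, the oxidase of branched acyl-CoA, averaged 5.86 ± 0.64 FPKM under single housing and 5.89 ± 0.75 FPKM under group housing (SD, n = 3 each).

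Auxiliary enzymes reshape unsaturated and branched acyl-CoA for the main spiral, and their 4 genes had log2 fold changes between 0.24 and 0.53. Ech1 (ENSMUSG00000053898; chromosome 7, 28524642 to 28531672), a dienoyl-CoA isomerase of peroxisomes and mitochondria, was at 124, 120 and 155 FPKM in single-housed libraries 1, 2 and 3, against 109, 109 and 75.6 FPKM in group-housed libraries 1, 2 and 3. The groups did not overlap, and the gap between the nearest libraries was small beside the spread within each group. The estimate was 1.45-fold (log2 fold change 0.53 ± 0.24, adjusted p = 0.734, edgeR). Pecr, an enoyl-CoA reductase, was at 8.37, 9.58 and 7.40 FPKM in single-housed mice, against 7.57, 7.56 and 5.73 FPKM in group-housed mice. Unlike most members it was highest in single-housed library 2, and its groups overlapped on FPKM but not after TMM scaling. Decr2, a dienoyl-CoA reductase, averaged 9.58 ± 1.01 FPKM under single housing and 8.40 ± 0.29 FPKM under group housing (SD, n = 3 each), without overlap. Amacr, the racemase of branched acyl-CoA, averaged 4.28 ± 0.38 and 3.85 ± 0.50 FPKM in the same order.

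Counted over the list, 5 of 34 members (Abcd3, Ech1, Decr2, Phyh and Slc25a17; 14.7%) had every single-housed FPKM above every group-housed FPKM, against 4.86% of all genes, and 0 had the reverse, against 9.01%. After TMM scaling the count was 4 (Abcd3, Ech1, Decr2 and Pecr; 11.8%), against 6.61% of all genes, and 0 had the reverse, against 6.78%.

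**Figure D3:**
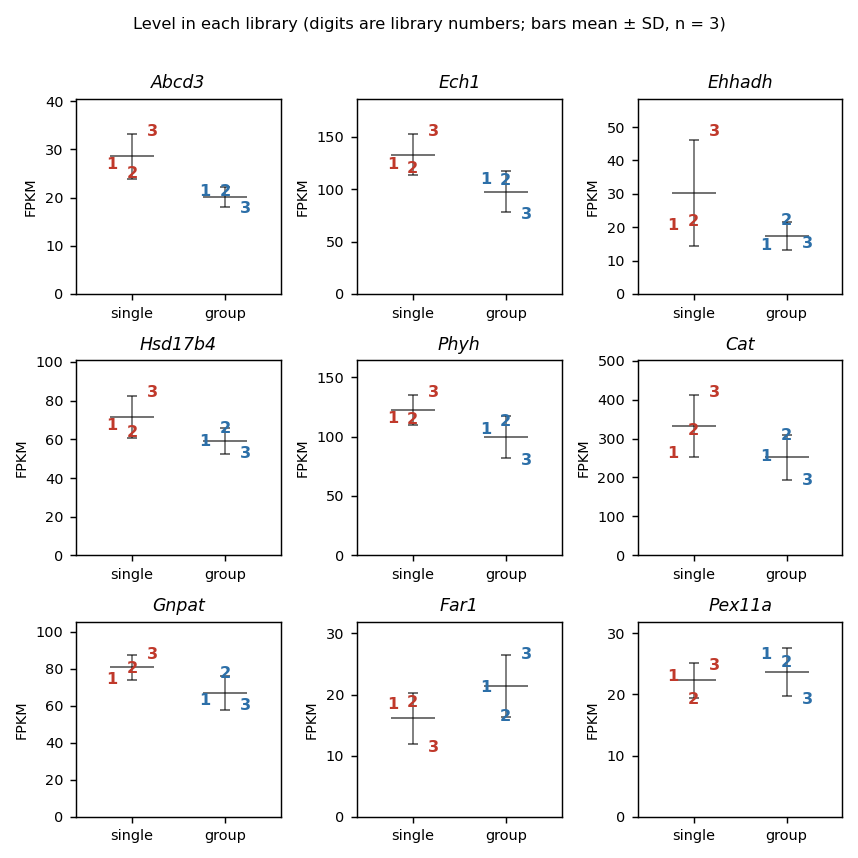
FPKM of 9 peroxisomal genes in single-housed and group-housed mice; each digit is a library, bars are mean ± SD of 3 libraries. Abcd3 and Ech1 do not overlap between groups, Ehhadh stands at 48.7 FPKM in single-housed library 3 alone, and Far1 has its lowest level there (11.3 FPKM).

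Alpha-oxidation removes a single carbon from phytanic acid. Phyh, its hydroxylase and 1 of 4 members above 100 FPKM, was at 115, 114 and 137 FPKM in single-housed mice, against 106, 113 and 80.0 FPKM in group-housed mice. Single-housed libraries 1 and 2 lay just above group-housed library 2, and the order did not survive TMM scaling. Hacl1, the lyase of the next step, was low, at 2.59, 3.16 and 3.57 FPKM in single-housed mice, against 2.18, 2.90 and 2.30 FPKM in group-housed mice. It overlaps Btd by 259 bases on the opposite strand, and Btd had more counts (a mean of 936 per library, against 361 for Hacl1).

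The ether lipid genes were the class whose members did not go the same way. Gnpat, the acyltransferase of the first step, was at 74.5, 80.4 and 88.0 FPKM in single-housed mice, against 63.2, 77.3 and 60.1 FPKM in group-housed mice. Far1 (chromosome 7, 113113041 to 113170718), the reductase that supplies fatty alcohol and limits the rate, was at 18.4, 18.7 and 11.3 FPKM in single-housed mice, against 21.1, 16.4 and 26.6 FPKM in group-housed mice. Agps, which exchanges the acyl chain for that alcohol, was at 8.40, 9.11 and 6.52 FPKM in single-housed mice, against 8.55, 8.14 and 11.2 FPKM in group-housed mice. Far1 and Agps thus had the library order of the other members upside down, lowest in single-housed library 3 and highest in group-housed library 3 (2 of 34, or 5.88%, against 17.3% of all genes after TMM scaling). Their log2 fold changes were -0.32 ± 0.20 and -0.13 ± 0.14, against 0.36 ± 0.19 for Gnpat, and none of the 3 passed (edgeR adjusted p from 0.788 to 0.876).

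Catalase was, with Scp2, the most abundant transcript of the list. Cat (chromosome 2, 103284194 to 103315505) stood at 261, 320 and 417 FPKM in single-housed libraries 1, 2 and 3, against 255, 308 and 192 FPKM in group-housed libraries 1, 2 and 3. The ranges overlapped widely, and the estimate of 1.41-fold (log2 fold change 0.49 ± 0.29, adjusted p = 0.817, edgeR) was within the spread between mice. The coenzyme A diphosphatases Nudt7 and Nudt19 were at 16.8, 14.7 and 17.1 FPKM and at 15.0, 13.2 and 15.1 FPKM in single-housed mice. In group-housed mice Nudt7 was at 16.4, 13.6 and 11.3 FPKM and Nudt19 at 15.2, 13.8 and 12.7 FPKM. Both overlapped between groups, and their log2 fold changes were 0.32 ± 0.19 and 0.15 ± 0.15.

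Peroxins lay close to 0. Their log2 fold changes ran from 0.00 to 0.31, none of the 11 had p below 0.219 (6.96% of all genes had p below 0.05), and the groups overlapped for all 11 on FPKM (4.86% of all genes lay above and 9.01% below without overlap). With the muscle covariate, 3 of the 11 peroxins were among the members at an unadjusted p below 0.05, as were 23.3% of all genes in that fit. They were Pex5 (log2 fold change 0.19), Pex14 (0.23) and Pex19 (0.33), with edgeR adjusted p-values of 0.158, 0.141 and 0.0591. Pex5, the receptor for the carboxy-terminal import signal, was at 18.3, 17.8 and 23.0 FPKM in single-housed mice, against 18.6, 20.1 and 16.7 FPKM in group-housed mice. The docking subunits Pex13 and Pex14 were at 28.4, 27.2 and 34.8 FPKM and at 4.91, 4.59 and 5.93 FPKM in single-housed mice. In group-housed mice Pex13 was at 31.6, 31.5 and 22.7 FPKM and Pex14 at 4.78, 5.20 and 4.13 FPKM. For all 3 genes the libraries numbered 1 and 2 of the single-housed mice lay inside the group-housed range. Pex7, the receptor for the amino-terminal signal, averaged 2.65 ± 0.09 FPKM under single housing and 2.60 ± 0.35 FPKM under group housing (SD, n = 3 each).

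Recycling of the import receptor needs the ubiquitin ligase subunits Pex2 and Pex10 and the ATPase Pex6. Pex2 was at 29.4, 28.7 and 27.2 FPKM in single-housed mice, against 31.0, 27.0 and 27.4 FPKM in group-housed mice. Pex10 was at 3.51, 2.97 and 3.02 FPKM in single-housed mice, against 3.76, 2.88 and 2.91 FPKM in group-housed mice. Pex6 was at 14.8, 14.5 and 14.8 FPKM in single-housed mice, against 14.8, 14.6 and 12.1 FPKM in group-housed mice. All 3 overlapped between groups, and the signs for Pex2 and Pex10 turned negative with library totals as scaling.

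Membrane proteins are inserted by Pex3, Pex16 and the chaperone Pex19. Pex19 was at 39.9, 40.0 and 52.2 FPKM in single-housed mice, against 37.8, 44.5 and 31.0 FPKM in group-housed mice (log2 fold change 0.31 ± 0.23). Pex3 was at 12.0, 12.2 and 12.5 FPKM in single-housed mice, against 12.4, 12.6 and 9.99 FPKM in group-housed mice, where library 3 alone stood apart. Pex16 was at 31.0, 27.6 and 35.5 FPKM in single-housed mice, against 37.8, 33.9 and 25.6 FPKM in group-housed mice. Pex11a, which elongates the organelle before division and is induced by PPARα in rodent liver, was at 22.9, 19.2 and 24.8 FPKM in single-housed mice, against 26.6, 25.2 and 19.2 FPKM in group-housed mice. Its log2 fold change was 0.00 ± 0.20, and the values of both Pex16 and Pex11a were negative in 7 of 19 alternatives.

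Other genes of the organelle, from a list of 66 symbols of which 65 were in the table and 54 were tested, had a median log2 fold change of 0.14, with 43 above 0. At an unadjusted p below 0.05, 6 were higher (among them Slc27a2, Ddo, Dhrs4, Ephx2 and Hsdl2; 11.1%, against 3.49% of all genes in that direction) and 0 were lower, and none passed after adjustment. Slc27a2, a very-long-chain acyl-CoA synthetase, was at 2.26, 1.84 and 6.59 FPKM in single-housed mice, against 0.29, 0.94 and 0.56 FPKM in group-housed mice (adjusted p = 0.465, edgeR). The groups did not overlap, and single-housed library 3 was again the highest. Ddo, the peroxisomal aspartate oxidase, was at 4.19, 3.40 and 4.05 FPKM in single-housed mice, against 3.27, 2.62 and 2.29 FPKM in group-housed mice.

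Receptors and coactivators that control peroxisomal genes were listed as 11 regulators, of which 4 (Ppara, Esrra, Ncoa1 and Ppargc1a) were higher at an unadjusted p below 0.05 (36.4%, against 3.49% of all genes in that direction), 0 were lower and none passed after adjustment. Ppara, the fatty acid receptor PPARα, was at 4.60, 3.29 and 6.46 FPKM in single-housed mice, against 1.83, 2.62 and 2.17 FPKM in group-housed mice (log2 fold change 1.22 ± 0.32, adjusted p = 0.482, edgeR). Esrra, the estrogen-related receptor alpha, was at 12.4, 13.5 and 13.7 FPKM in single-housed mice, against 11.5, 9.63 and 9.93 FPKM in group-housed mice. Ncoa1, a nuclear receptor coactivator, was at 7.94, 7.54 and 7.64 FPKM in single-housed mice, against 6.26, 6.74 and 7.04 FPKM in group-housed mice. Over all 11 regulators, 5 had every single-housed FPKM above every group-housed FPKM (45.5%, against 4.86% of all genes). After TMM scaling 4 did (36.4%, against 6.61%). Ppara, Esrra and Ncoa1 were among the 5 on FPKM. These 3 were named for the smallest p of the list, which favours groups without overlap. On FPKM Ppara and Esrra were highest in single-housed library 3 and Ncoa1 in single-housed library 1. None of the 3 was lowest in group-housed library 3 on FPKM. After TMM scaling all 3 were highest in single-housed library 3, and of them only Esrra was lowest in group-housed library 3.

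Mitochondrial beta-oxidation, the parallel pathway for shorter chains, is given for scale. Its 18 genes had a median log2 fold change of 0.67, with 13 higher at an unadjusted p below 0.05 (72.2%, against 3.49% of all genes in that direction). On FPKM 15 of the 18 had single-housed levels above all group-housed levels (83.3%, against 4.86% of all genes), and the same number had them so after TMM scaling (against 6.61%). After TMM scaling 15 (83.3%) were also highest in single-housed library 3 and lowest in group-housed library 3, an order shown by 79.4% of the 34 members and 16.3% of all genes. Acaa2, the mitochondrial thiolase, was at 173, 149 and 206 FPKM in single-housed mice, against 87.1, 87.5 and 79.7 FPKM in group-housed mice. Acadvl was at 149, 136 and 187 FPKM in single-housed mice and at 92.9, 95.2 and 80.0 FPKM in group-housed mice, and Cpt1b, the carnitine transferase also expressed in muscle, at 5.54, 5.0 and 10.2 FPKM and at 1.72, 2.35 and 2.12 FPKM in the same order. None of these 3 passed after adjustment (edgeR adjusted p from 0.25 to 0.414), and the difference between the mitochondrial and peroxisomal lists was not tested.

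**Figure D4:**
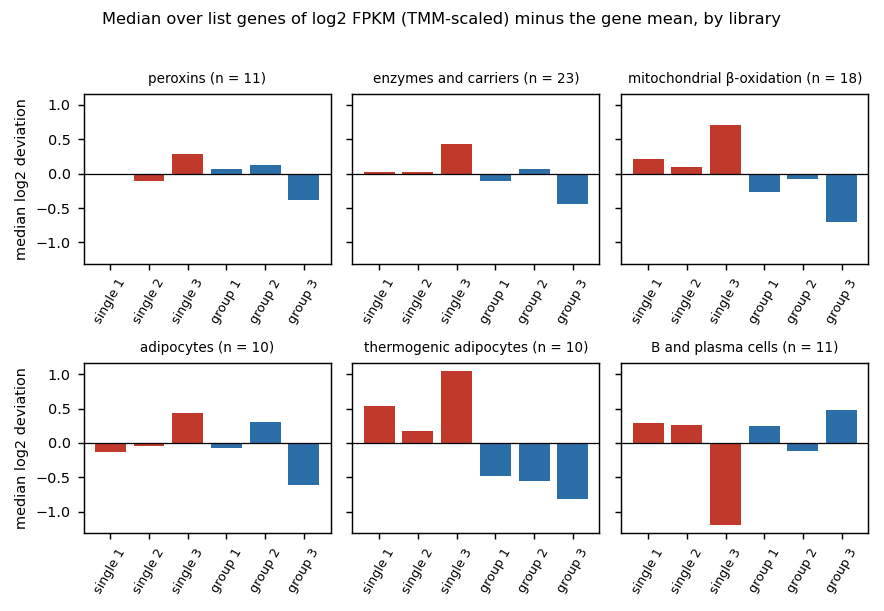
Median over each gene list of log2 TMM-scaled FPKM minus the gene's own mean, in single-housed (red) and group-housed (blue) libraries 1 to 3. Peroxins, peroxisomal enzymes and carriers and adipocyte markers peak in single-housed library 3 (0.28, 0.43 and 0.44) and are lowest in group-housed library 3 (-0.38, -0.44 and -0.61). Mitochondrial beta-oxidation (0.71 and -0.70) and thermogenic markers (1.05 and -0.81) share that order, and both also lie above 0 in all 3 single-housed and below 0 in all 3 group-housed libraries.

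Thermogenic adipocyte markers (10 genes) deviated by 0.53, 0.17 and 1.05 log2 units in single-housed libraries and by -0.48, -0.55 and -0.81 in group-housed libraries. Macrophage markers (10 genes) deviated by -0.37, -0.25 and -0.05 log2 units in single-housed libraries and by 0.29, 0.28 and 0.24 in group-housed libraries, so the groups did not overlap. Of the 10, 6 were lower under single housing at an unadjusted p below 0.05 (3.47% of all genes) and none passed after adjustment. Their summed levels overlapped, at 640 to 948 FPKM under single housing and 914 to 1370 FPKM under group housing. T and NK cell markers (10 genes) summed to 82.6 to 297 FPKM under single housing, lowest in library 3, and to 150 to 336 FPKM under group housing. Markers of mammary epithelium (8 genes), keratinocytes (6 genes) and hepatocytes (6 genes) summed to 0.59 to 13.6 FPKM in single-housed and 0.81 to 9.21 FPKM in group-housed libraries, and the milk protein gene Csn3 had 0 counts in all 6. The part of these cell contents in the members' differences was not tested.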

How the data were processed

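Bulk RNA-seq of inguinal fat from 3 single-housed and 3 group-housed mice was used. Per the labels' protocols, RNA came from frozen tissue by TRIzol extraction with DNase I treatment. The submitters' processing notes name mm39; the sources used here give no aligner, counting program or strand setting. The deposited raw counts are whole numbers per gene, per the file headers. The deposited FPKM equal counts over exon length and library total (100% within 0.0051), with no composition factor. A further 24 per-sample columns match no sample here and were not used. Rows with no symbol (2639, at most 0.171% of counts) carry gene identifiers and stayed in the test.

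Counts were tested with edgeR 4.0.16 in R 4.3.3 (filterByExpr, TMM, quasi-likelihood F test, two-sided, Benjamini-Hochberg over 18085 genes, threshold 0.05). Standard errors are the absolute log2 fold change over the square root of F. DESeq2 1.42.0 and limma 3.58.1 on log2(FPKM + 1), for genes with a mean of at least 1 FPKM, were alternatives. The count tests were also run on simulated counts with known changes. Of 113 genes with a 2-fold change, edgeR called 21 (18.6%) and DESeq2 51 (45.1%). Of 87 genes with a 4-fold change, edgeR called 72 (82.8%) and DESeq2 82 (94.3%). Changes of 2-fold were thus mostly missed, and the largest member estimate was 1.9-fold (Ehhadh). Members and lists were chosen with earlier results of these data known. Members named with values per library are the 2 of smallest p and the most abundant one of each role, with all members of roles of 3 or fewer. Other lists contribute their 3 genes of smallest p, of which 1 is not reported here, and further genes were named after their values were seen. The libraries are separate mice, and p-values set the housing difference against the spread between mice within a group. Whether mice shared a cage or litter is not given, so these p-values may not cover a spread between cages or litters. Counts of 16 members may include reads of an overlapping gene (at least 10 counts on average).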

Additional observations from a re-analysis of the deposited data

How the results depend on the processing

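Over 19 alternatives, 26 of 34 members kept the sign of their log2 fold change, and the members' median stayed between 0.10 and 0.37. Signs turned for 8 members. With library totals as scaling, Pex2 was at -0.001, Pex10 at -0.0042, Pex16 at -0.05, Pex11a at -0.09, Acox3 at -0.01 and Acaa1a at -0.02. With limma on log2(FPKM + 1), Pex10 was at -0.0016, Pex16 at -0.04, Pex11a at -0.08, Acox3 at -0.0043 and Acaa1a at -0.02, and with a pseudocount of 0.1 these were -0.00063, -0.04, -0.08, -0.0048 and -0.02 in the same order. With the adipocyte covariate, chosen after seeing the data, Pex16 was at -0.09, Pex11a at -0.11 and Acaa1a at -0.01. Without single-housed library 3 and group-housed library 2, Pex16 was at -0.04 and Pex11a at -0.05. Leaving out 1 replicate at a time gave ranges of -0.01 to 0.30 for Pex5, -0.02 to 0.29 for Pex13, -0.01 to 0.22 for Pex10, -0.13 to 0.16 for Pex16, -0.15 to 0.13 for Pex11a and -0.04 to 0.20 for Acaa1a.

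The count of genes past the threshold, 0 in the main test, was 179 with DESeq2, 53 without a filter on low counts, 1134 with the muscle covariate, 64 with the adipocyte covariate and 22 without the libraries richest in muscle. Members at an unadjusted p below 0.05 numbered 1 in the main test (6.96% of all genes). They numbered 3 with DESeq2 (4.42%) and 3 without a filter (5.37%). With the muscle and adipocyte covariates they numbered 20 (23.3%) and 7 (11.9%), and without the libraries richest in muscle 6 (12.0%). Each percentage is the share of all genes of the same fit, a larger base with DESeq2 and without a filter. Leaving out 1 replicate at a time gave between 0 members (without group-housed library 3, 4.44%) and 7 (without group-housed library 2, 9.57%). There were 3 without single-housed library 1 (6.19%) and 2 without single-housed library 2 (5.4%). Members past the adjusted threshold numbered 7 with the muscle covariate and 0 in the other 18 alternatives. The cause of these shifts was not tested.

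With the replicate number as a block, 0 members had p below 0.05, 0 genes passed and the members' median log2 fold change was 0.25. Deviations of same-numbered libraries from their group means correlated at 0.121, -0.562 and -0.702. The highest correlation of any pair, 0.716, was between single-housed library 3 and group-housed library 2, the libraries richest in muscle transcripts. With muscle content differing this much, the correlations do not decide whether the numbers pair the samples, and pairing was not tested. With 3 mice per group, differences of the size seen for most members could not be told from the spread between mice.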
